A study of Mus musculus with 6 samples.

Results

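A promoter array carries a separate stretch of closely spaced probes, here called a tile, over each region it covers, and 944 of the 18614 tiles of the mouse array used here were long. A tile counted as long when its first and last probe starts lay 6000 bp or more apart and it held at least 40 probes. No measured signal entered this choice. The long tiles spanned 6000 to 13245 bp, with a median of 6293 bp and of 61 probes, whereas the median of the other tiles was 3927 bp. They held 59955 of the 714900 probes, or 8.39%, and lay under 21 chromosome names, with most on chromosome 11 (85) and on chromosomes 2 and 7 (80 each).

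The array was hybridised with DNA bound by Ezh2 in mouse embryonic stem (ES) cells, to ask how loss of Brca1 alters where Ezh2 sits. R1 cells were transfected with control siRNA or Brca1 siRNA and harvested after 48 h, with 1 array each. AB2.2 cells (wild-type Brca1) and PL2F8 cells (Brca1-deficient), both labelled as strain 129/SvEvBrd-Hprtb-m2, were profiled on 2 arrays each. All cells were grown on gelatin with LIF, and on all 6 arrays Cy5 marked ChIP DNA and Cy3 input DNA. Each line of the pair is a single line, so Brca1 state and any other difference between AB2.2 and PL2F8 cannot be told apart. The labels do not describe the Brca1 alleles of PL2F8, and they do not tie the duplicates to different cultures. The p-values below therefore measure the spread between arrays, which may be technical. The duplicates were close: over the long tiles they correlated at r = 0.987 in AB2.2 and at 0.998 in PL2F8. The arrays measure DNA binding and cannot check the loss of Brca1 or the identity of the cells. A log2 ratio averages over all cells of a sample, so fewer cells with bound Ezh2 and less Ezh2 per cell cannot be told apart.

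Ezh2 is the catalytic subunit of Polycomb repressive complex 2, which methylates lysine 27 of histone H3. In ES cells this complex sits mainly at CpG-rich promoters of genes that control development, most of them silent, and at the largest of these targets it spreads over many kilobases. Genes that lie close together in the genome can share one such domain, or an occupied promoter can lie beside an active one. Brca1 is a nuclear protein best known for its part in repair of broken DNA by homologous recombination.

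The layout of the array shows how long tiles arise. A transcription start was covered from 3200 bp before it to 800 bp after it, and 7990 of the 8005 other tiles whose only named start carried 1 gene name (99.8%) had exactly this layout. Neighbouring starts whose covered stretches touched were merged into 1 tile. Names come from the peak lists of the authors, which give the nearest start of each peak, so only genes beside a peak on at least 1 array have one. Named tiles are therefore selected for peaks. The PL2F8 arrays listed more peaks (6386 and 6273) than the AB2.2 arrays (5482 and 4864), so naming can favour tiles with more signal in PL2F8. Of the 944 long tiles, 491 held a named start, with 907 named genes in all, and 423 held at least 2, against 563 of 8575 named tiles among the others. That was 86.2% of the named long tiles and 6.57% of the named other tiles. The named starts that set both ends of a tile sorted 406 of the long tiles into 4 layouts. In 177 tiles the starts lay head to head, transcribed away from each other from a shared centre. In 70 tiles they diverged but lay several kilobases apart, with the stretch between them upstream of both. In 110 tiles both were on the same strand, and in 49 they faced each other, so that transcription ran inwards. The ends of 85 named tiles were not settled by a named start, and 453 tiles had none.

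The promoters below belong to tiles on which the results turn. The first group comes from tiles with the most Ezh2 signal, the second from tiles that rose most in PL2F8 and the third from tiles that fell most. Each is the stretch of 250 bases before the start, 5′ to 3′ on the strand of the gene, from the RefSeq promoter table (GRCm38.p6), with every CG dinucleotide in capitals. AI314831 is Wt1os in that table.
Pax6os1: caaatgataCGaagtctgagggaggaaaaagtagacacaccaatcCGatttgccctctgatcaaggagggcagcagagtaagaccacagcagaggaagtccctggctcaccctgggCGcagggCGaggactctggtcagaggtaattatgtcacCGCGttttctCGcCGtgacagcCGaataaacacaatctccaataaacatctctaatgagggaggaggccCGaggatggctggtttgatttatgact
Hoxa11: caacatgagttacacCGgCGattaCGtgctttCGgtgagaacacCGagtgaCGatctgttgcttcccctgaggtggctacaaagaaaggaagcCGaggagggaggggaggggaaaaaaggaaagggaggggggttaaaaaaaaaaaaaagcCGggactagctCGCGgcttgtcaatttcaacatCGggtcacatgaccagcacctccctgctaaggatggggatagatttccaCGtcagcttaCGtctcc
AI314831: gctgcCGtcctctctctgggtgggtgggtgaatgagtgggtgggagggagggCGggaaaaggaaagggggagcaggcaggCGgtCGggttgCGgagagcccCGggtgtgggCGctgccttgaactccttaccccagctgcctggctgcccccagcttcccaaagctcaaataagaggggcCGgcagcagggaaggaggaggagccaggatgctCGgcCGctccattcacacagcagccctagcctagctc
Pdia2: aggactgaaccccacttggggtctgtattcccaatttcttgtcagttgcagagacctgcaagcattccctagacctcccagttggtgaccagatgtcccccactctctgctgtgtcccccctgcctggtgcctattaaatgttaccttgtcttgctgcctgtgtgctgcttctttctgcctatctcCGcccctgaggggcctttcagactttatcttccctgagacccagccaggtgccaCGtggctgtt
Sarm1: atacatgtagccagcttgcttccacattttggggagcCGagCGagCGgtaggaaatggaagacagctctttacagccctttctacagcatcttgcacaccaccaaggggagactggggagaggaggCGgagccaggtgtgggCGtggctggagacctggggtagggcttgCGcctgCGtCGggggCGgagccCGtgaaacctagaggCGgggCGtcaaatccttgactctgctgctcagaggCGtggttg
2810004N23Rik: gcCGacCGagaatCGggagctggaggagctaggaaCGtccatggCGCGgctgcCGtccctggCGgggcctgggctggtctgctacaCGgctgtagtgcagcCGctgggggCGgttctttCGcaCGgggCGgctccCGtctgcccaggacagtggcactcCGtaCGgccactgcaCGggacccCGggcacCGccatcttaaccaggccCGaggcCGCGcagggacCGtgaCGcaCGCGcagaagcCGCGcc
Ckb: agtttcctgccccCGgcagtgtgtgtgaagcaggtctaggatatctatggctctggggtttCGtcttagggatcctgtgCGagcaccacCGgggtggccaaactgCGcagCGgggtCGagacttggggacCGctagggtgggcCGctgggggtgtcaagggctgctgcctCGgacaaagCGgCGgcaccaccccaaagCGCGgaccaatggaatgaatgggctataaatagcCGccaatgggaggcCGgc
In GRCm38.p6 these lie on the minus strand at chr2:105670331-105670580 (Pax6os1), chr6:52245811-52246060 (Hoxa11), chr2:105126511-105126760 (AI314831), chr17:26199088-26199337 (Pdia2), chr11:78497755-78498004 (Sarm1), chr8:124863030-124863279 (2810004N23Rik) and chr12:111672339-111672588 (Ckb). The motif searched was CG, which reads the same on both strands. Among the 22862 genes with a single entry in that table, 91.1% held at least 1 CG in these 250 bases, 37.4% at least 10, and the median was 5. The 3 promoters of the high tiles held 10, 13 and 10, that of Pdia2 held 2, that of Sarm1 13 and that of Ckb 16. The promoter of 2810004N23Rik, whose tile had a low mean Ezh2 signal over its length, held 29, the most of these 7. Of the promoters in the table, 17.3% held at least 20.

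Measured as the mean log2 ratio of ChIP over input over all probes of a tile, with the median probe of each array set to 0, the typical long tile carried less Ezh2 signal than the typical other tile. The median over the 944 tiles was -0.12 and -0.15 in R1 cells with control and Brca1 siRNA, -0.14 and -0.16 for the duplicates of AB2.2, and -0.07 for both of PL2F8. Over the 17601 other tiles with at least 5 probes the medians lay between -0.001 and 0.05. The order by this mean was the same on all 6 arrays. Among tiles with a named start it was the same again, with medians from -0.05 to 0.16 on long tiles and from 0.23 to 0.47 on others. By the highest running mean of 5 probes on a tile, long tiles instead had the higher median on all 6 arrays. These medians ran from 0.76 to 1.20 on long tiles and from 0.73 to 1.07 on the others. A maximum can grow with the number of probes, and long tiles hold more of them, so this summary favours long tiles. Among tiles with a named start, long tiles were again lower by this summary (1.28 to 1.87 against 1.47 to 2.06). A mean log2 ratio of 1 or more, meaning at least a doubling over the array median, was reached by 28 to 60 long tiles per array. The lowest share was 2.97% (AB2.2 replicate 2), where 6.98% of the others reached it, and on the R1 array with Brca1 siRNA the shares were 6.36% and 11.1%. Tiles share arrays and are not replicates, so these comparisons are descriptions and were not tested. At the limit of the rule, the 75 tiles of 5900 to 5998 bp had medians between -0.22 and -0.10 on the 6 arrays, and the 136 tiles of 6000 to 6099 bp between -0.26 and -0.14.

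Layout went with level. Tiles with starts on the same strand were highest, with a median of 0.45 in R1 cells with control siRNA, 0.14 and 0.08 in AB2.2 and 0.42 and 0.39 in PL2F8. Divergent starts that lay apart followed at 0.23, 0.10 and 0.04, and 0.33 and 0.29 in the same order. Facing tiles (0.06, 0.03 and 0.007, and 0.12 on both) and head-to-head tiles (0.003, -0.05 and -0.09, and 0.09 and 0.07) were near the array median. Long tiles with no named start were below it on all 6, between -0.32 and -0.19. On PL2F8 replicate 1, 32 of 110 same-strand tiles had a level of 1 or more (29.1%), against 9 of 177 head-to-head tiles (5.08%). In R1 cells with control siRNA the shares were 22.7% and 3.95%. None of these comparisons between layouts was tested. A layout was given only where named starts set both ends, and a start is named only beside a peak in these same data. The order of levels is thus partly set by this choice, most plainly for tiles with no named start, none of which held a listed peak.

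The order at the start itself was different. In the 750 bp after a named start, the median over the 370 starts of head-to-head tiles was 0.41 in R1 with control siRNA, 0.18 and 0.07 in AB2.2, and 0.73 and 0.65 in PL2F8. The 258 starts of same-strand tiles gave 0.70, 0.55 and 0.27, and 0.84 and 0.77, and the 104 starts of facing tiles gave 0.73, 0.47 and 0.25, and 1.35 and 1.19. At the 8007 starts that were alone on another tile and had at least 4 probes there the medians were 1.09, 0.91 and 0.69, and 1.45 and 1.36. Each layout of the long tiles thus lay below lone starts on all 6 arrays, and so did the 1176 starts of other tiles with several starts. The latter gave 0.62, 0.46 and 0.29, and 0.86 and 0.80 in the same order, so the lower level was not particular to long tiles. Away from the start the layouts parted. On the profile around starts, same-strand tiles stayed at 0.40 or more on PL2F8 replicate 1 over 3000 bp to either side, a stretch in which the next start often lies. Head-to-head tiles were below 0 on that array more than 1750 bp from the start.

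**Figure D1:**
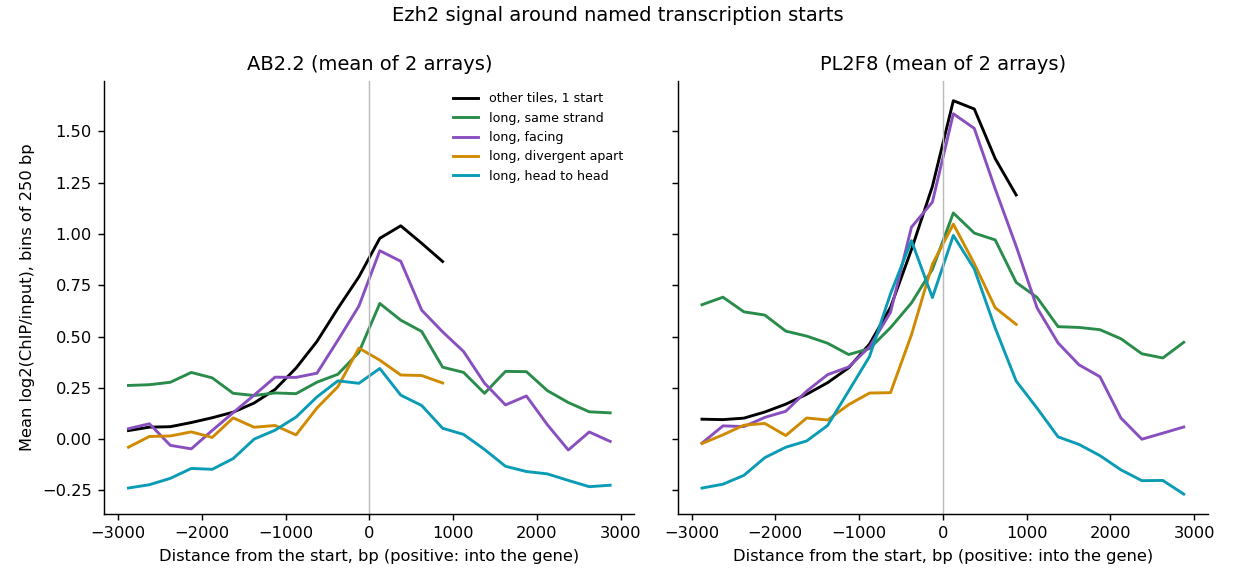
Mean log2(ChIP/input) in bins of 250 bp by distance from named transcription starts, with negative distances before the start and positive ones inside the gene, for AB2.2 (left) and PL2F8 (right), each the mean of 2 arrays. Black is the 8007 starts alone on other tiles and colours are the layouts of long tiles. Lone starts are highest after the start in both lines, and head-to-head starts fall below 0 far from the start.

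Head-to-head promoters were rich in CG. The 290 of 355 genes of head-to-head tiles found in the RefSeq promoter table (81.7%) had a median of 26.5 CG per 300 bases, and 96.2% had at least 10. The 166 of 206 genes of same-strand tiles found there (80.6%) had a median of 15.0, and 63.3% had at least 10. Over all 27025 genes of the table the median was 7.0. For divergent, facing and lone starts fewer than 80% of the genes were found, so the same comparison is void for them. Named genes are selected for peaks, so the like set is all 9614 named genes, of which 76.7% were found. Their median was 18.0, and 73.8% had at least 10, both above the same-strand values. With fewer than 80% found, these values are given for scale only.

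Between the starts, the layouts differed further. On tiles with divergent starts apart, the stretch between the starts had a median level of 0.13 in R1 with control siRNA, against 0.58 and 0.31 in the 800 bp inside the gene at either end. AB2.2 replicate 1 gave 0.015 against 0.28 and 0.07, and PL2F8 replicate 1 gave 0.18 against 0.61 and 0.51. Ezh2 signal on these tiles was thus higher at the ends than in the middle on these arrays, while on AB2.2 replicate 2 the right end (-0.09) was below the middle (0.008). On same-strand tiles in R1 with control siRNA the medians were 0.56 between the starts, 0.24 before the first start and 0.34 after the last. In AB2.2 the stretch between the starts (0.26 and 0.11) was below that after the last (0.36 and 0.18), and in PL2F8 both were near 0.5 (0.51 and 0.48 against 0.50 and 0.47). The 34 facing tiles with probes between the starts, inside both genes, had 0.88 there in R1 with control siRNA, 0.89 and 0.72 in AB2.2, and 1.66 and 1.59 in PL2F8.

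The named long tiles with the most signal, of which 10 are described here, carried mainly genes of transcription factors and regulators of development. Pax6/Pax6os1 (chromosome 2, 105509701 to 105517376 in the coordinates of the files, whose build was not given in the sources used here) was highest. Pax6 is a paired-box factor of eye and forebrain, and Pax6os1 is transcribed from the opposite strand. Its tile had a level of 3.31 and 2.98 on the R1 control and Brca1 siRNA arrays, 2.81 and 2.62 in AB2.2, and 3.13 and 3.02 in PL2F8. The tile of Tcfap2a, which encodes the AP-2 alpha factor of neural crest and skin, had 3.01 and 2.86, 2.72 and 2.53, and 3.24 and 3.11 in the same order. On both tiles the PL2F8 duplicates lay above the AB2.2 duplicates with no overlap. Hoxa10/Hoxa11/Hoxa11as, posterior genes of the Hoxa cluster, had 3.37 and 3.35 in R1, 2.73 and 2.46 in AB2.2, and 2.76 and 2.70 in PL2F8, so that the duplicates of the 2 lines overlapped and the R1 arrays stood above both.

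The others were AI314831/Wt1 (Wt1 is a zinc finger factor of kidney and gonad), Pdgfra (a receptor tyrosine kinase), Vax2/Vax2os1/Vax2os2 (Vax2 is a homeobox factor of the ventral eye), Hoxa3/Hoxa5, Igf2/Igf2as (Igf2 is an imprinted growth factor), Emx2/Emx2os (Emx2 is a homeobox factor of cortex and urogenital tract) and Hic1 (a zinc finger repressor). Their means over the 6 arrays lay between 2.14 and 2.62. Vax2 had the widest gap between R1 and the lines, with 3.23 and 3.02 in R1, 2.31 and 2.10 in AB2.2, and 2.07 and 1.92 in PL2F8. By layout, 5 of the 10 had starts on the same strand, and in 3 of these (Tcfap2a, Pdgfra and Hic1) all named starts belonged to 1 gene. In Wt1 and Emx2 the starts lay head to head, in Vax2 and Igf2 they faced each other, and in Pax6 they diverged apart.

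**Figure D2:**
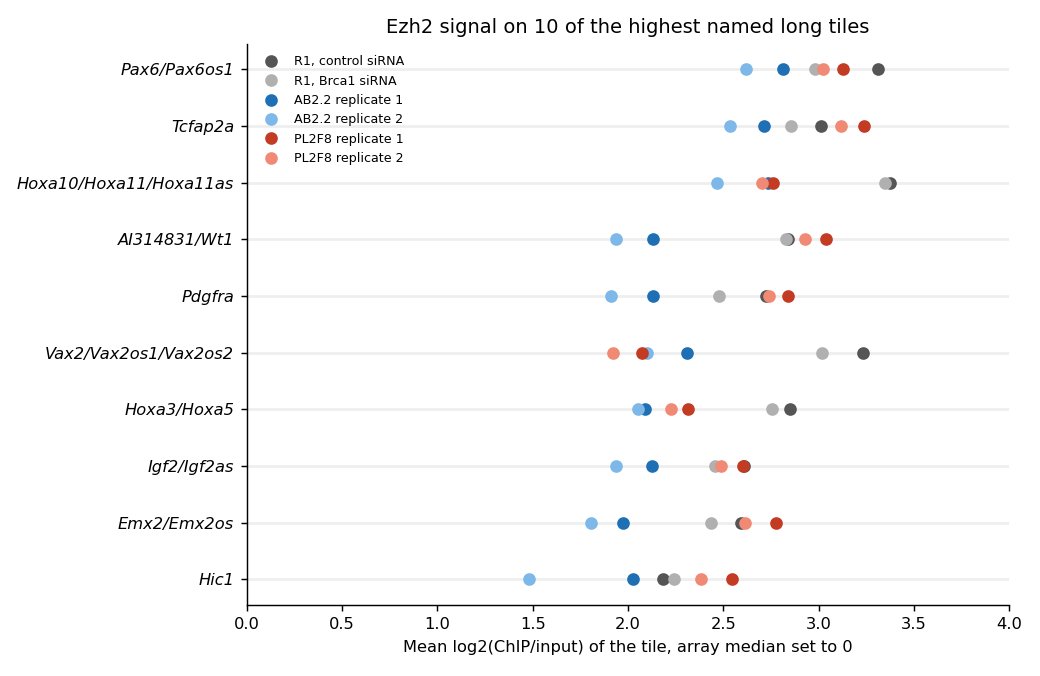
Level of 10 of the highest named long tiles on each of the 6 arrays, as the mean log2(ChIP/input) of the tile with the median probe of the array set to 0. Each point is 1 array. AB2.2 points (blue) lie left of the PL2F8 points (red) on most tiles, with Vax2/Vax2os1/Vax2os2 the reverse.

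Breadth was measured as the length over which the running mean of 5 probes was 1 or more. Signal of this height was present on 312 to 516 of the 944 long tiles per array (33.1% to 54.7%), and where present it covered a median of 485 to 775 bp, or 6.72% to 11.3% of the tile. Over all tiles it was present on 33.7% to 49.1% per array, so the shares were near each other. Where present there, it covered a median of 620 to 800 bp, or 15.6% to 20.1% of the tile. Broad cover was rare: 15 to 28 tiles per array had 4000 bp or more. The widest tile on every array was Hoxa10/Hoxa11/Hoxa11as, with 8436 and 8479 bp in R1, 7708 and 7823 bp in AB2.2, and 8083 and 8003 bp in PL2F8, of a tile of 8889 bp. Pax6/Pax6os1 was covered over its full 7675 bp in R1 and PL2F8 and over 7389 bp on both AB2.2 arrays. Tcfap2a was covered fully (7299 bp) in PL2F8, over 6686 and 6586 bp in AB2.2, and over 6904 and 6751 bp in R1. Separate stretches numbered 2 or more on 71 to 157 long tiles per array (7.52% to 16.6%), against 6.79% to 11.1% of all tiles. They numbered 3 or more on 21 to 51 long tiles per array and at most 6.

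Where long tiles had such signal, it mostly covered more of the tile in PL2F8. Of the 590 of 944 tiles with any breadth on the 4 arrays of the lines, 392 were wider in both PL2F8 arrays than in both AB2.2 arrays (66.4%) and 95 were narrower in both (16.1%). Over the 10570 tiles of the array with any breadth the shares were 61.3% and 15.8%, so those of the long tiles were near the array's. The medians over these tiles were 205 bp in AB2.2 and 520 bp in PL2F8. A mean gain of 1000 bp or more was seen on 69 tiles (11.7%) and a loss of that size on 1 (0.169%), against 5.35% and 0.199% over the array, whose other tiles are shorter. Breadth depends on the height of the signal over a fixed threshold, so it moves with the level.

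The level itself rose in PL2F8 on 480 of the 944 long tiles and fell on 123 (limma, Benjamini-Hochberg adjusted p over all 18545 tiles under 0.05, 2 arrays against 2), while 341 did not pass. Over all tiles 48.4% were called higher and 20.3% lower, so the share of rises on long tiles (50.8%) was near that of the array and the share of falls (13.0%) was below it. The median difference was 0.12 on the long tiles and 0.11 on all. The duplicates did not overlap on 597 long tiles with PL2F8 higher and on 220 with PL2F8 lower, where the shares over all tiles were 57.8% and 28.1%. Quantile normalization of the 6 arrays, which forces them to 1 distribution, changed the split to 298 rises and 295 falls and moved the median of all tiles from 0.11 to -0.01. The count of rises thus depended on how the arrays were scaled. Without PL2F8 replicate 1 there were 331 rises and 59 falls, and without PL2F8 replicate 2 there were 355 and 68.

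Large differences were mostly rises. A rise of at least 0.5 with an adjusted p under 0.05 was found on 88 long tiles (9.32%) and a fall of that size on 2, against 9.24% and 0.766% of all tiles. Quantile normalization left 31 such rises and 4 falls. Same-strand tiles had 83 rises and 3 falls among 110, with a median difference of 0.29, and 32 of them rose by at least 0.5. Head-to-head tiles had 114 rises and 23 falls among 177 (median 0.19), divergent tiles 46 and 8 among 70 (0.21) and facing tiles 29 and 5 among 49 (0.15). The 8012 other tiles with 1 start, of 1 or more gene names, had 63.8% rises, 11.1% falls and a median of 0.23. Long tiles with no named start had 158 rises and 75 falls among 453, with a median of 0.04. The difference between layouts was not tested. Tiles with no named start held no listed peak, and naming can favour rises in PL2F8, so named and unnamed tiles are not a like comparison.

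**Figure D3:**
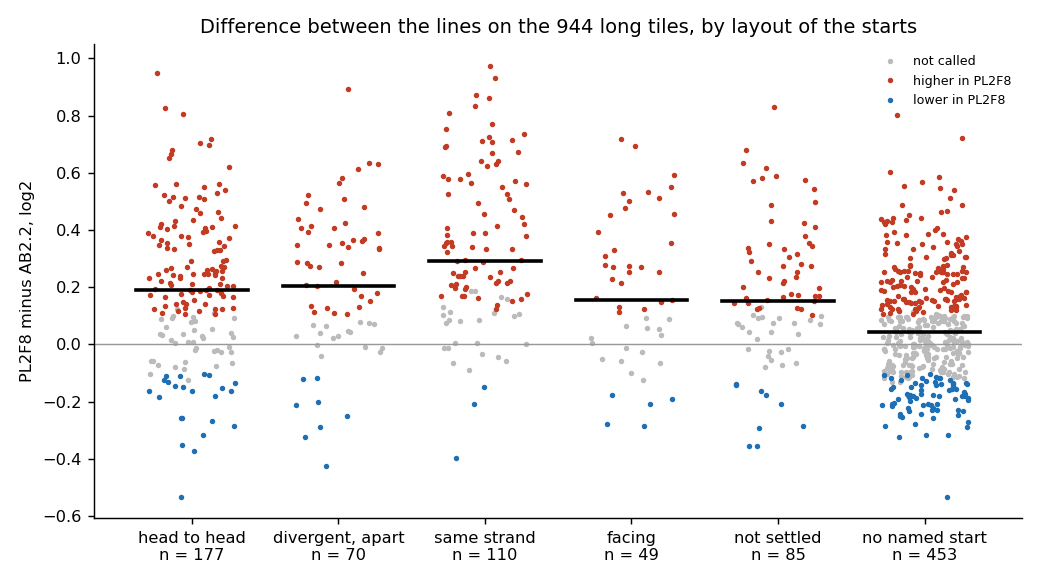
Difference in tile level between PL2F8 and AB2.2 (log2, mean of 2 arrays each) for the 944 long tiles, grouped by the layout of the starts. Points are tiles, red where higher and blue where lower in PL2F8 by limma with an adjusted p under 0.05, and black bars are medians. The median is 0.29 in same-strand tiles and 0.04 in tiles with no named start.

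The largest rise among named long tiles was at Arhgdig/Pdia2/Rgs11, of which Pdia2 codes for a protein disulfide isomerase and Rgs11 for a regulator of G-protein signalling. Its level was 0.94 and 0.57 in AB2.2 and 1.78 and 1.68 in PL2F8, a difference of 0.97 ± 0.11 (SE, limma adjusted p = 0.000264). The 2 R1 arrays lay between, at 1.32 with control and 1.66 with Brca1 siRNA. By the highest running mean of 5 probes the difference was 0.58 and not called (adjusted p = 0.129). AI314831/Wt1 rose by 0.95 ± 0.07 (adjusted p = 6.89e-05, 1.93-fold), from 2.13 and 1.94 in AB2.2 to 3.04 and 2.93 in PL2F8. Both R1 arrays, at 2.84 and 2.83, were nearer to PL2F8 than to AB2.2. Sarm1/Sebox/Vtn (Sarm1 drives axon degeneration, Sebox is a homeobox gene of oocytes and Vtn encodes vitronectin) rose by 0.93 ± 0.07 (adjusted p = 6.73e-05), from 0.35 and 0.15 to 1.20 and 1.16. The R1 arrays gave 0.98 and 1.12 there. In all 3 tiles the AB2.2 arrays were the lowest of the 6.

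The other 5 tiles of the 8 largest rises were 2010107H07Rik/Nt5dc2, Doc2g/Nudt8, Rhbdl1/Stub1, Gm88/Polr1c/Yipf3 and Sema3b. They rose by 0.83 to 0.89, from levels between -0.84 and -0.23 in AB2.2 to levels between 0.12 and 0.51 in PL2F8. Nt5dc2 is a nucleotidase-domain protein, Stub1 an E3 ubiquitin ligase that works with heat-shock chaperones, Polr1c a subunit of RNA polymerases I and III, and Sema3b a secreted semaphorin. None of these 5 reached a tile level of 1 on any array, but single windows did. On the Gm88/Polr1c/Yipf3 tile the window from 9000 bp, which holds the Gm88 start, had 1.43 and 1.19 in AB2.2 and 2.73 and 2.58 in PL2F8, and all 10 windows were called higher in PL2F8.

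Falls were smaller. The largest was at 2810004N23Rik/Gnpat, a head-to-head pair in which Gnpat starts the synthesis of ether lipids. Its level was -0.01 and 0.07 in AB2.2, -0.53 and -0.48 in PL2F8, and -0.56 and -0.65 in R1. The difference was -0.53 ± 0.04 (SE, limma adjusted p = 9.63e-05), and here the AB2.2 duplicates were the highest of the 6 arrays. Ckb/Trmt61a (brain creatine kinase and a tRNA methyltransferase) fell by 0.43 ± 0.07 (adjusted p = 0.00168), from 0.53 and 0.31 in AB2.2 to 0.02 and -0.03 in PL2F8, while R1 gave 1.07 and 0.98. Here the PL2F8 duplicates were the lowest, and with the median of probes for the tile the call was lost (adjusted p = 0.116). The other 6 tiles were Tas2r108/Tas2r137 (bitter taste receptors), Elp4/Immp1l, Senp3, Arl5b, Dbil5/Gemin4 and 2610028H24Rik/Pcnt, and fell by 0.32 to 0.40. With the median of probes the call at 2610028H24Rik/Pcnt was lost too. All had levels between -0.52 and 0.27 on the 4 arrays of the lines, so none had a high mean level. Short stretches on some were high in AB2.2 but not in PL2F8. By the highest running mean of 5 probes, Arl5b had 3.78 and 3.98 in AB2.2 and 0.75 and 0.72 in PL2F8. In the same order, 2610028H24Rik/Pcnt had 3.79 and 4.05 against 0.36 and 0.33, and Dbil5/Gemin4 3.38 and 3.32 against 0.83 and 0.81. At 2810004N23Rik/Gnpat the values were 2.63 and 2.50 against 0.27 and 0.32. Tas2r108/Tas2r137, Elp4/Immp1l and Senp3 had at most 1.49 in AB2.2.

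Among the 10 tiles with the most signal described above, 8 were called higher in PL2F8. Of all named long tiles 65.6% were called higher, and of all tiles 48.4%, so with 10 tiles this count does not set them apart. The rises were 0.81 ± 0.07 at Emx2/Emx2os (adjusted p = 0.000119), 0.77 ± 0.07 at Pdgfra (0.000146), 0.71 ± 0.16 at Hic1 (0.00525) and 0.55 ± 0.07 at Tcfap2a (0.000427). Igf2 (0.51), Pax6/Pax6os1 (0.36) and Hoxa3/Hoxa5 (0.20) rose by less. Quantile normalization lowered these rises: Pax6/Pax6os1 to 0.08, where the call was lost (adjusted p = 0.102), Igf2 to 0.26, Tcfap2a to 0.34, Hic1 to 0.36 and Pdgfra to 0.45, with the last 4 calls kept. Hic1 also rested on single arrays, with 0.44 without AB2.2 replicate 2 and no call without PL2F8 replicate 1 (0.63, adjusted p = 0.0604), and Hoxa3/Hoxa5 lost its call without PL2F8 replicate 1 (0.16, adjusted p = 0.0785). The Hoxa3/Hoxa5 difference changed sign to -0.10 under quantile normalization, and when the highest running mean of 5 probes stood for the tile it was -0.49, with -0.02 at Pax6/Pax6os1 and -0.025 at Tcfap2a. By that summary the calls of Emx2/Emx2os (0.54), Pdgfra (0.53), Hic1 (0.35) and Igf2 (0.20) were lost too, with adjusted p from 0.069 to 0.29. Hoxa10/Hoxa11/Hoxa11as differed by 0.13 ± 0.08 (adjusted p = 0.193), with 0.27 and a call without AB2.2 replicate 1 (adjusted p = 1.96e-05) and -0.004 without AB2.2 replicate 2. Vax2 fell by 0.21 ± 0.08 (adjusted p = 0.0456). That call was lost without AB2.2 replicate 1 (-0.11), PL2F8 replicate 1 (-0.29) or PL2F8 replicate 2 (-0.13), with adjusted p from 0.0583 to 0.291, and when arrays were centred on tiles with no listed peak (-0.15, adjusted p = 0.115). Under quantile normalization the fall was larger (-0.53).

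The difference between the lines was also read along the tile. Each tile was divided into windows of 1000 bp with at least 5 probes, 6269 on the long tiles. By limma over all 75770 windows of the array, 2387 of them were higher in PL2F8 and 1365 lower, or 38.1% and 21.8%, with 35.3% and 22.5% over the array. Rises of at least 0.5 numbered 1364 and falls 312, where 19.5% and 5.03% of all windows passed. Set against the mean of its own tile on the same array, which removes any shift of a whole array, a window was higher in PL2F8 in 1880 cases and lower in 2106 (30.0% and 33.6%, against 27.7% and 30.5% over the array). By at least 0.5, 786 were higher and 611 lower, or 12.5% and 9.75%, where 10.3% and 7.71% of all windows passed. Without PL2F8 replicate 1, 1296 windows were lower relative to their tile, and 525 in absolute terms (672 without PL2F8 replicate 2). In absolute terms, 177 long tiles (18.8%) held both a window that rose and a window that fell by at least 0.5, against 7.50% of the others. A long tile had a median of 6 windows and another tile 4, so more windows were tested on each. Tiles of divergent starts apart had the largest share of such tiles, 26 of 70 (37.1%), with a median of 7 windows.

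Pax6/Pax6os1 was such a tile. In its first window, over the Pax6os1 start, the level was 2.44 and 2.42 in AB2.2 and 3.74 and 3.63 in PL2F8, a rise of 1.25 ± 0.07 (SE, limma adjusted p = 4.48e-05). In its last, just inside Pax6, it was 4.22 and 4.11 in AB2.2 and 3.15 and 3.03 in PL2F8, a fall of 1.08 ± 0.08 (adjusted p = 8.39e-05). The R1 arrays gave 3.79 and 3.55 in the first window and 3.69 and 3.45 in the last. The tile mean of 0.36 thus joined a gain at one start and a loss at the other.

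On Arhgdig/Pdia2/Rgs11 the rise was largest between the Pdia2 and Arhgdig starts. The window from 1000 bp had -0.27 and -0.80 in AB2.2 and 1.75 and 1.73 in PL2F8, a rise of 2.27 ± 0.16 (adjusted p = 6.74e-05). The window from 3000 bp, which holds the Arhgdig start, had 2.39 and 1.89 in AB2.2 and 2.29 and 2.15 in PL2F8, a difference of 0.08 ± 0.16 (adjusted p = 0.67). Arhgdig is on the minus strand with its start at 3057 bp, so most of this window lies before the start. In the 750 bp after that start AB2.2 had 1.43 and 1.11 and PL2F8 2.41 and 2.16, which was not tested. On AI314831/Wt1, in contrast, all 6 windows were higher in PL2F8, by 0.66 to 1.23. On Ckb/Trmt61a the fall lay at the Ckb end. Its first window fell by 1.91 ± 0.22 (adjusted p = 0.000443), from 2.80 and 2.02 to 0.57 and 0.43, and the last, at the Trmt61a end, differed by -0.0005 with levels between -0.74 and -0.63 on these arrays.

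**Figure D4:**
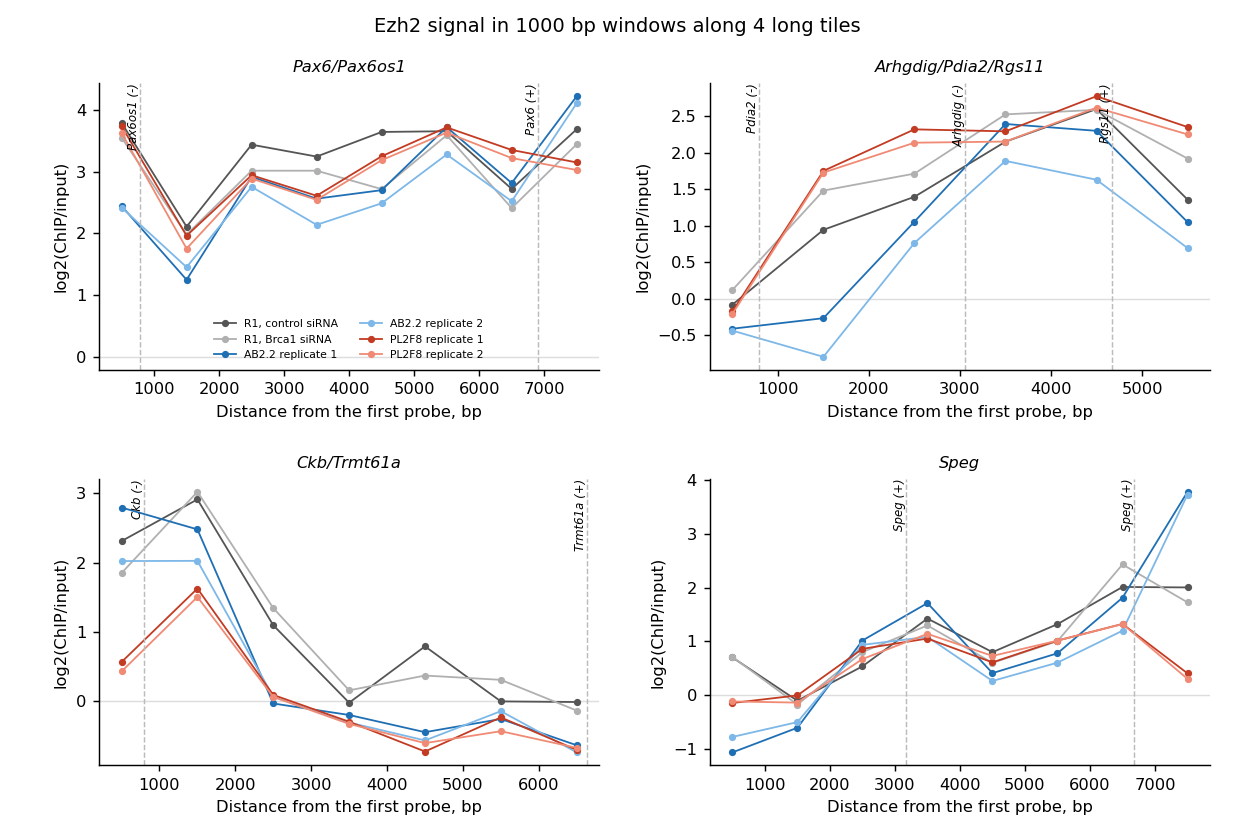
Mean log2(ChIP/input) in windows of 1000 bp along 4 long tiles, by distance from the first probe of the tile, with 1 line per array and dashed lines at named starts (strand in brackets). The lines of AB2.2 (blue) and PL2F8 (red) cross along Pax6/Pax6os1 and Speg and part at 1 end of Ckb/Trmt61a.

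The 6 tiles with the widest range of window differences were Speg, 1810049H13Rik/Ccdc137/Pde6g, Mrrf/Rbm18, Aup1/Dqx1/Htra2, Map3k11/Pcnxl3 and BC016201/Tepp. Each held windows called in both directions relative to the tile, with ranges from 3.19 to 4.20. All 61 probes of BC016201/Tepp carry a count above 1 in their identifiers, so its values may not belong to this locus alone. Speg encodes a muscle kinase and has 2 named starts on its tile. Its last window, after the second start, had 3.79 and 3.74 in AB2.2, 0.41 and 0.30 in PL2F8, and 2.01 and 1.73 in R1. It fell by 3.41 ± 0.07 (adjusted p = 2.27e-05, 5 probes), while the first window rose by 0.79 ± 0.10 (0.000724). The tile mean differed by -0.06 ± 0.06 (adjusted p = 0.391), with -0.14 and a call without AB2.2 replicate 2 (adjusted p = 0.0112) and -0.22 and a call under quantile normalization (adjusted p = 0.00166). On Mrrf/Rbm18 (a mitochondrial ribosome recycling factor and an RNA-binding protein) the first window had 1.40 and 1.56 in AB2.2 and -1.14 and -1.05 in PL2F8, with -0.55 and -0.76 in R1. The window over both starts had 0.21 and -0.23 in AB2.2 and 1.16 and 1.20 in PL2F8. In the first of these windows the AB2.2 duplicates were the highest of the 6 arrays, and in the second the PL2F8 duplicates were.

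Merged tiles also set neighbouring starts side by side. On 142 long tiles the starts that set the ends were at least 2000 bp apart and belonged to different genes, and their levels in the 750 bp after the start were compared as a mean over the 6 arrays. Both starts had a level of 1 or more on 16 tiles, 1 of them on 56 and neither on 70. The higher start was higher on all 6 arrays in 87 pairs. The higher of 2 starts is chosen by its level, so the gap (median 0.81) is a description.

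The widest gaps placed a start with high signal within a few kilobases of one near or below the array median. The start of Car7, a carbonic anhydrase, had 4.38 and 4.46 in R1, 4.44 and 3.84 in AB2.2, and 4.55 and 4.40 in PL2F8. That of Nae1, a subunit of the NEDD8-activating enzyme, 6198 bp away and divergent, had values between -0.08 and 0.56 on the 6 arrays. Odf3b (2.82 to 3.73) lay 5436 bp from Sco2 (-0.99 to 0.08), which encodes a copper chaperone of cytochrome c oxidase, on the same strand. Rrs1 (2.40 to 3.35), a ribosome biogenesis factor, lay 2638 bp from Adhfe1 (-1.23 to -0.67), an alcohol dehydrogenase. In these 3 pairs every array of the higher start was above every array of the lower one. Dlgap2, a postsynaptic scaffold protein (3.03 to 3.95), and Erich1 (-0.42 to 0.13) formed a similar divergent pair 5547 bp apart.

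Both starts were high at clusters of related genes and at a few other pairs. Hoxa11 and Hoxa10, 4913 bp apart, had means of 4.32 and 2.81 over the 6 arrays, and Hoxa5 and Hoxa3 3.28 and 2.39. Pax6 and Pax6os1, 6114 bp apart, had 3.64 and 3.35. Tnf and Lta, neighbouring cytokine genes, had 2.53 and 1.64, with differences between PL2F8 and AB2.2 of 1.09 and 1.04. Plekhh3 and Ccr10 had 3.60 and 1.67. At Gsc2 and Dgcr14, 3711 bp apart, the lines differed in opposite directions: Gsc2, a homeobox gene, had 2.91 and 2.72 in AB2.2 and 4.17 and 3.92 in PL2F8, whereas Dgcr14 had 1.49 and 1.41 in AB2.2 and -0.34 and -0.39 in PL2F8. Levels at single starts were not tested, and these pairs were chosen after their values were seen.

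**Figure D5:**
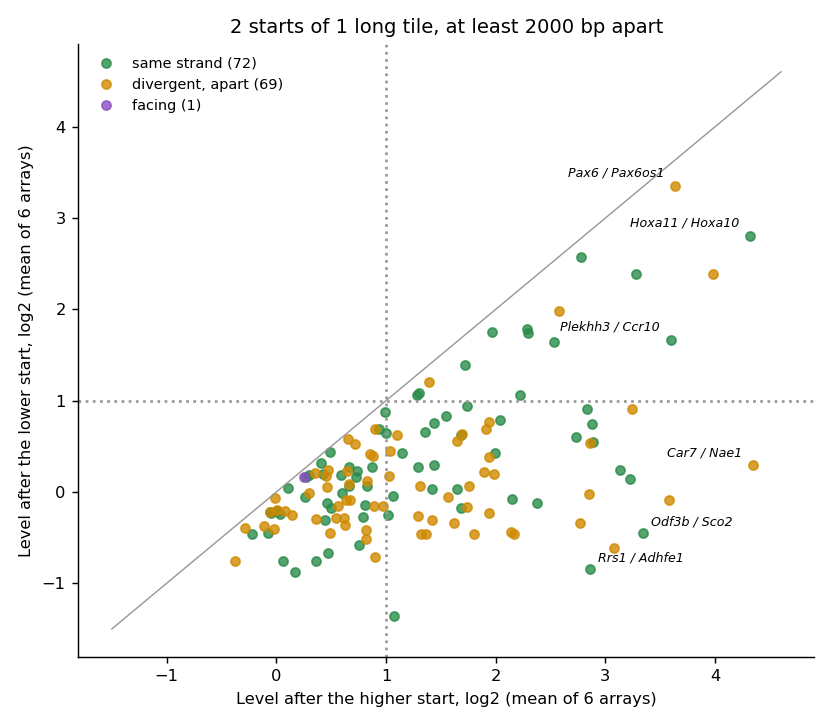
Level in the 750 bp after each of 2 starts of 1 long tile, as the mean of the 6 arrays, for 142 tiles whose outer starts lie at least 2000 bp apart and belong to different genes. The higher start is on the x axis, so all points lie below the diagonal, and dotted lines mark a level of 1. In 16 pairs both starts pass the line, and Car7, Odf3b and Rrs1 lie far below the diagonal.

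By gene list, tiles with developmental genes carried the most signal. All list genes have a named start, and of the 491 long tiles with one, 65.6% were called higher in PL2F8 and 9.78% lower, with a median difference of 0.20. The values over all 18545 tiles were 48.4%, 20.3% and 0.11. Naming itself can favour rises in PL2F8, whose arrays listed more peaks than those of AB2.2, so this excess is no finding about named genes. The 2 tiles of the Hox clusters had levels between 2.05 and 3.37, and 1 of 2 was called higher in PL2F8. Of the 10 tiles with another developmental transcription factor, 6 had a mean level of 1 or more, 7 were called higher in PL2F8, 1 lower and 2 not, with a median difference of 0.46. The 6 tiles of signalling ligands and receptors had 4 rises and no fall, 3 with a level of 1 or more. Chrd, an inhibitor of bone morphogenetic proteins, had a level of 1.21 in AB2.2 and 1.27 in PL2F8 (difference 0.05 ± 0.05, adjusted p = 0.378). All 3 imprinted tiles were higher in PL2F8: Gnas by 0.58 ± 0.06, Igf2 by 0.51 ± 0.07 and Peg10/Sgce by 0.40 ± 0.05. Of 2 protocadherin tiles both were higher in PL2F8 and both had a mean level of 1 or more.

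Tiles of the other lists, most but not all of them with little signal, were mostly called higher too, as were named long tiles in general. All 12 zinc finger tiles stayed below a mean level of 1, yet 11 were called higher and 1 lower, with a median of 0.23. Of 14 solute carrier tiles, 11 were called higher, 1 lower and 2 not (median 0.29), again with none at 1 or more. The 3 ribosomal protein tiles were all higher, from levels between -0.55 and -0.004 in AB2.2 to levels between -0.30 and 0.50 in PL2F8. Ion channel genes gave 4 rises on 6 tiles (0.21), drug and steroid metabolism genes 2 on 3 (0.45), and histone genes 2 on 3 (0.41). The 2 collagen tiles gave 1 rise (0.06), and the single keratin tile rose by 0.42. Of lists with 1 tile, the Polycomb subunit gene Ring1 rose by 0.50, the cell cycle inhibitor Cdkn1a by 0.16 and Pdgfra, which is also a fibroblast marker, by 0.77. A tile of a small nucleolar RNA gene fell by 0.14, and that of Dnmt3l, a DNA methylation cofactor of ES cells, differed by -0.07 ± 0.04 (adjusted p = 0.128). No long tile held a named olfactory or vomeronasal receptor.

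In R1 cells, with 1 array per condition and no test, most long tiles differed little between Brca1 siRNA and control. The difference from control siRNA was at least 0.5 upwards on 1 long tile and downwards on 2, against 1.11% and 0.906% of all tiles, and it ranged from -0.59 to 0.59. The tile that rose was Doc2g/Nudt8, at 0.15 with control and 0.74 with Brca1 siRNA. Among named tiles the largest fall was at 2610027L16Rik/Dhrs1, from 0.26 to -0.33. The 8 tiles with the largest PL2F8 rise differed by -0.06 to 0.59 in R1, 6 of them upwards. The 8 with the largest fall differed by -0.46 to 0.22, and 5 of them downwards. The median R1 difference over named long tiles was 0.009, so either direction was common, and these counts were not tested.

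The longest tiles had low mean levels. The longest tile, Csnk2b/D17H6S53E with 13245 bp, had levels between -0.49 and -0.05. Surf1/Surf2, from a tight cluster of housekeeping genes, spanned 12077 bp with levels between -0.68 and -0.14. Across the 8 longest named tiles no array reached a level of 0.40. Tiles with the most named starts or genes varied. Fxyd1/Fxyd7 (regulators of the sodium pump), with 4 named starts, had 1.18 and 1.16 in R1, 0.86 and 0.69 in AB2.2, and 0.86 and 0.83 in PL2F8, and the high tile Igf2/Igf2as holds 4 as well. Tiles with 4 named genes were lower: Hist2h2aa1/Hist2h2aa2/Hist2h3c1/Hist2h3c2-ps, histone genes that are near-identical copies, lay between -0.33 and 0.16, and Prm2/Prm3/Socs1/Tnp2, which joins sperm chromatin genes and a cytokine signalling inhibitor, between -0.10 and 0.40. Within the latter, the window over the Socs1 start had 1.19 and 0.65 in AB2.2 and 1.82 and 1.62 in PL2F8. Most probes of 13 long tiles carried a count above 1 in their identifiers, and what this count records is not stated. Leaving such probes out kept 933 long tiles and gave a median difference of 0.11.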

How the data were processed

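Ezh2-bound DNA and input DNA were hybridised to 6 arrays of 4 groups. The authors deposited log2 ratios of ChIP over input per probe, normalized before deposit by a method not given in the sources used here. They also deposited a peak list per array, whose scores are, per the file headers, log2 ratios of the fourth highest probe. Per the file headers, its false discovery rates are p-value-like fractions (FDR), which were not used as tests here. Peak lists served to name starts, and the caller and genome build were not given.

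Each array was centred on its probe median, and probes were averaged per tile and per window of 1000 bp (at least 5 probes each). PL2F8 and AB2.2 (2 arrays each) were then set against each other by limma 3.58.1 (R 4.3.3), without a replicate block, over all tiles or windows, with Benjamini-Hochberg adjustment and a threshold of 0.05. With 2 against 2 arrays, the smallest exact two-sided permutation p is 0.3333. The number of arrays limits the precision. On simulated data with known changes, false calls among windows came more often than the threshold allows. Tables and figures used Python 3.11.15, numpy 2.4.6, pandas 2.3.3 and matplotlib 3.10.9.

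Named long tiles are the 12 with the highest level (2 of them are not reported here), the 8 largest rises and 8 largest falls past the threshold without overlap of duplicates, the 8 longest, the 6 with the widest range of window differences, the 4 highest and 4 lowest R1 differences and the 6 with the most starts. For each of 19 gene lists, members are counted and the extremes may be named. The long tiles, the lists and these rules were chosen with earlier results of these data known. Of 907 named genes on long tiles, 721 had a RefSeq promoter entry. Alternatives covered scaling, centring, summary of probes, window size, breadth threshold, the rule for long tiles and each array left out. They also covered a replicate block, a fit of the 6 arrays of 4 groups and probes with a count of 1 only. The last, and the test of the line difference against the R1 difference, were added after seeing the data.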

Additional observations from a re-analysis of the deposited data

Results flagged for a closer look

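The PL2F8 minus AB2.2 difference was set against the Brca1 siRNA minus control difference in R1 in 1 limma fit of the 6 arrays, for the 16 tiles with the largest rises or falls. Because these tiles were chosen for the first of the 2 differences, a larger value in the lines is favoured, and R1 has 1 array per condition, so its spread is assumed to equal that of the lines. Over all long tiles, 367 had a difference of differences above 0 (38.9%) and 56 below 0 (5.93%) at an adjusted p under 0.05, against 36.2% and 11.3% of all tiles. For 13 of the 16 tiles the difference of differences (log2) passed that threshold.

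Among rises it was 0.9604 at AI314831/Wt1 and 0.9179 at Rhbdl1/Stub1, where the R1 difference was slightly below 0 (-0.01 and -0.06). It was 0.7859 at Sarm1/Sebox/Vtn, 0.7791 at Gm88/Polr1c/Yipf3, 0.6467 at Sema3b, 0.6298 at Arhgdig/Pdia2/Rgs11 and 0.4674 at 2010107H07Rik/Nt5dc2, where R1 moved the same way by less. Doc2g/Nudt8 did not pass (0.28, adjusted p = 0.0577 by limma), and it had the largest R1 rise of the long tiles.

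Among falls it was -0.5725 at Dbil5/Gemin4, -0.4649 at 2610028H24Rik/Pcnt and -0.3801 at Senp3, where R1 moved upwards, by 0.22, 0.14 and 0.02. It was -0.4415 at 2810004N23Rik/Gnpat, -0.3574 at Elp4/Immp1l and -0.3489 at Arl5b. Ckb/Trmt61a (-0.34, adjusted p = 0.06) and Tas2r108/Tas2r137 (0.06, adjusted p = 0.671) did not pass by limma.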

How the results depend on the processing

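Across the alternatives, 126 values of the main results stayed within the spread of duplicates or within 1.5 times the main count, 57 moved further and 1 changed sign. One alternative fitted the 6 arrays of 4 groups together. The R1 groups add no spread there, so its values equal the main ones by design and are no check. For tile levels (480 higher, 123 lower, 88 and 2 by at least 0.5, median 0.12), quantile normalization gave 298, 295, 31, 4 and a median of -0.0036. The median of probes gave 271 higher, 1 lower by at least 0.5 and a median of 0.04. Centring on tiles with no listed peak gave 75 lower, 0 by at least 0.5 and 0.1723. The highest running mean of 5 probes gave 309 higher and 126 lower by at least 0.5 and 0.265. Restriction to 8000 bp or more left 46 higher, 2 lower, 8 and 0 by at least 0.5 and 0.2267, and to 60 probes or more 78 lower, 0 by at least 0.5 and 0.1516, both on fewer tiles. Leaving out 1 array gave 331 to 506 higher, 59 to 132 lower and medians of 0.1056 to 0.1338. PL2F8 replicate 2 and the AB2.2 arrays share a number series in the array names, so leaving out PL2F8 replicate 1 is also the fit within that series.

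For windows, quantile normalization gave 2125 lower and 554 lower by at least 0.5. Windows of 500 bp gave 4172 higher and 2448 lower, 2893 and 964 by at least 0.5, and relative to the tile 3332 and 3785, 1958 and 1665. Windows of 2000 bp gave 1348 and 721, 596 and 79, and relative to the tile 1015 and 1115, 194 and 145, since their numbers differ. Without 1 array, 525 to 1511 windows were lower, and 1296 to 2431 relative to the tile. Median breadth where present (441 bp in AB2.2, 632.5 bp in PL2F8) became 550.5 and 872.5 bp at a threshold of 0.5, 567.5 bp in PL2F8 at 1.5, 215 and 342 bp with single probes, and 600 bp in PL2F8 with quantile normalization. The median level (-0.1504 in AB2.2, -0.07 in PL2F8) became -0.0951 and -0.1208 with quantile normalization and -0.17 and -0.1525 with the median of probes, which also gave 4 R1 rises of at least 0.5 in place of 1.

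Of 395 alternative values of 33 named tiles, 357 kept direction and side of the threshold, 26 lost the call, 6 gained one and 6 changed sign. The last were Hoxa3/Hoxa5 under quantile normalization (-0.0972) and, by the highest running mean, Hoxa3/Hoxa5 (-0.49), Pax6/Pax6os1 (-0.0163), Tcfap2a (-0.025), 1810049H13Rik/Ccdc137/Pde6g (-0.712) and Map3k11/Pcnxl3 (-0.55). Apart from the smaller sets and the number of windows, the cause of these changes was not tested. With the replicate number as a block, 499 long tiles were higher and 142 lower, and Hoxa10/Hoxa11/Hoxa11as gained a call (adjusted p = 0.019). Same-numbered arrays deviated together at r = 0.23 over 18545 tiles, but there are only 2 pairs and the labels give no pairing.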

Other observations

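Some windows had signal on the arrays of 1 pair alone. On long tiles, 11 of 6269 windows (0.176%) had a log2 ratio of 1 or more on both AB2.2 arrays and below 0 on the other 4, among them the window from 2000 bp of 2810004N23Rik/Gnpat (1.54 and 1.49 in AB2.2, -1.02 to -0.43 on the others), and the count for PL2F8 was 5 (0.0798%) and for R1 1 (0.016%). On other tiles the counts were 92, 27 and 4 of 69501 windows (0.132%, 0.0388% and 0.0058%). AB2.2 had the fewest windows at 1 or more on both arrays on long tiles, 318 against 582 in PL2F8 and 436 in R1.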
